A study of Mus musculus with 4 samples.

Results

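The Ifit and Ifitm antiviral genes were followed in whole kidneys of mice with pristane-induced lupus-like disease. The group held the 7 genes Ifit1, Ifit2, Ifit3, Ifit3b, Ifitm1, Ifitm2 and Ifitm3, which were found by matching Ensembl identifiers to GENCODE M21 symbols and made up 7 of the 54532 genes counted. All 7 passed the filter on low counts and were among the 14908 genes tested. Kidney polyA RNA of wild-type (WT) mice was compared with that of Zbp1-/- mice (Zbp1-KO), with 2 libraries of each genotype and 4 libraries in all. Zbp1, whose protein senses nucleic acids in the Z conformation, is itself induced by interferon, and the comparison asked how its loss changes immune gene expression in this model. Both genotypes were on a C57BL/6J background, and the Zbp1-KO allele was a CRISPR-Cas9 germline deletion of exons 2 to 8. Every mouse, WT and Zbp1-KO alike, had been injected intraperitoneally at 8 weeks with 500 µL pristane, an oil used to provoke lupus-like autoimmunity. Kidneys were taken 8 months later, and the study describes the mice of this experiment as female. Kidneys without pristane were not analysed here, so the levels describe diseased kidneys of both genotypes. The labels do not say whether each library came from a separate animal, so p-values measure only the spread between these samples.

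IFIT proteins are built from tetratricopeptide repeats and bind RNA whose ends lack the marks of host messages, which keeps such RNA from being translated. IFITM proteins are small membrane proteins that hinder the fusion of enveloped viruses with cell and endosome membranes. Both families are classical targets of type I interferon: signalling from the receptor leads to the binding of interferon-stimulated response elements, which hold paired GAAA units.

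The 4 Ifit members lay on the forward strand of chromosome 19 within 99.3 kb of the GRCm38 assembly (34550694 to 34650009), in the order Ifit2, Ifit3, Ifit3b and Ifit1. Ifit3 (34583531 to 34588731), Ifit3b (34607970 to 34613401) and Ifit1 (34640871 to 34650009) each had 2 exons in GENCODE M21, and Ifit2 (34550694 to 34576419) had 4. The 3 Ifitm members lay within 55.9 kb of chromosome 7 (140954837 to 141010770). Ifitm2 (140954837 to 140955987) and Ifitm3 (141009586 to 141010770), each with 2 exons, lay on the reverse strand, and Ifitm1 (140967221 to 140969825), with 3 exons after merging its transcripts, on the forward strand.

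The promoters of the members were read to show the sequence feature that links them to interferon. RefSeq windows of 300 bases in GRCm38.p6, from 250 bases before to 50 bases after a transcript start, were searched on both strands for the letters GAAANNGAAA. A match was present in 5 of the 7 members, against 3.99% of the 27025 genes with a window and 23 of 48 (47.9%) other interferon-stimulated genes with a window. The stretches that hold the matches are given 5′ to 3′ on the strand of the gene, with the matching letters in capitals. On the reverse strand the same motif reads as TTTC units.
Ifit1: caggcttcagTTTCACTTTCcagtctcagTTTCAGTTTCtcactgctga
Ifit3: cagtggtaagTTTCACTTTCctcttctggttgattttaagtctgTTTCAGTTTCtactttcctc
Ifit3b: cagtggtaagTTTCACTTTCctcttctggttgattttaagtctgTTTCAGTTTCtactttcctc
Ifitm2: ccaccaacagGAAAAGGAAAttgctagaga
Ifitm3: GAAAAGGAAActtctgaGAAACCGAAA
The Ifit1 stretch lay at chr19:34640775-34640823 (forward strand, positions -114 to -66 from the start). The Ifit3 stretch lay at chr19:34583363-34583426 (forward strand, positions -166 to -103) and the Ifit3b stretch at chr19:34607759-34607822 (forward strand, positions -198 to -135). The 64 bases of Ifit3 and Ifit3b were identical, with 0 differences, and all 3 Ifit stretches carried the same pair of matches, TTTCACTTTC followed by TTTCAGTTTC. The Ifitm2 stretch lay at chr7:140955988-140956017 (reverse strand, positions -56 to -27). The Ifitm3 stretch lay at chr7:141010716-141010742 (reverse strand), just inside the transcript at positions 3 to 29 from the RefSeq start. Ifitm2 and Ifitm3 shared the match GAAAAGGAAA. No window of Ifit2 or Ifitm1 held these letters, which says only that they are not in those windows. The annotated starts of Ifit1 and of the related gene Ifit1bl2 lay 128 bases apart on opposite strands, so the Ifit1 matches were also in the Ifit1bl2 window.

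Total counts were 9878776 to 12921925 per library, of which 49.5% to 61.5% fell on mitochondrially encoded genes and 4003417 to 5782924 on other genes. Zbp1-KO 1, the library in which Ifit2, Ifit3 and Ifit3b were highest, had the lowest mitochondrial share (49.5%, against 57.4%, 61.5% and 59.5% in WT 1, WT 2 and Zbp1-KO 2) and the highest TMM factor (1.19, against 0.988, 0.906 and 0.941), and the part of this in the member levels was not tested. A count of 0 allows a level of up to 3 counts, or 0.221 to 0.323 CPM (normalised counts, divided by the TMM-scaled library size), and this limit covers counting error only. Zbp1 had 94 and 125 counts in WT 1 and WT 2 and 18 and 0 counts in Zbp1-KO 1 and Zbp1-KO 2, that is 7.56, 10.7, 1.33 and 0 CPM. Its log2 fold change was -3.64 ± 0.89 (SE, edgeR unadjusted p = 0.00153, adjusted p = 0.999). The deleted gene itself was not called by this test, so a lack of calls among the members does not show that their levels were equal. All 12 kidney tubule and podocyte markers had counts, with summed levels of 3913 to 4585 CPM. The edgeR quasi-likelihood test called 2 of the 14908 genes (0.0134%) at an adjusted p under 0.05, Cfd and Lars2, both higher in Zbp1-KO.

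Levels of the members were compared with each other as CPM per kb of merged exons, averaged over the 4 libraries. For Ifitm2, Ifit3 and Ifit3b this length includes stretches shared with another gene. Reads there have no unique place for Ifit3 and Ifit3b, and no unique gene for Ifitm2. Their levels per kb may therefore be too low. Ifitm3 was highest at 135 ± 15.8 CPM per kb (SD, n = 4), with a range of 116 to 148. Ifitm2 followed at 55.4 ± 5.98 CPM per kb (48.3 to 61.1) and Ifit3 at 40.4 ± 11.5 (27.5 to 55.0), and the ranges of these neighbours overlapped. Ifit1 lay at 20.0 ± 4.77 CPM per kb (13.1 to 23.9), apart from Ifit3 above it and Ifitm1 below it in rank. Its range overlapped that of Ifit2. Ifitm1, the member known from the cell surface, had 11.0 ± 1.46 CPM per kb (9.26 to 12.3), Ifit2 had 8.49 ± 4.03 (4.36 to 13.6) and Ifit3b had 5.46 ± 2.41 (3.18 to 8.77). The ranges of Ifitm1 and Ifit2 overlapped, and so did those of Ifit2 and Ifit3b. Within each family the order was the same in 4 of 4 libraries: Ifit3, Ifit1, Ifit2 and Ifit3b, and Ifitm3, Ifitm2 and Ifitm1.

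Summed per kb, the Ifitm members were above the Ifit members in every library. The Ifitm sum was 190, 220, 206 and 188 CPM per kb in WT 1, WT 2, Zbp1-KO 1 and Zbp1-KO 2. The Ifit sum was 60.5, 79.1, 101 and 56.7 CPM per kb in the same order. The ratio of Ifitm to Ifit was therefore 3.13 and 2.78 in WT and 2.03 and 3.32 in Zbp1-KO, with both WT ratios between the Zbp1-KO ratios.

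None of the 7 members passed the test between genotypes, at an adjusted p under 0.05 (background 0.0134%) or at an unadjusted p under 0.05 (background 3.88%), and DESeq2 and the exact test of edgeR also called 0 members. Every member had an edgeR adjusted p of 0.999, and the unadjusted edgeR p-values ran from 0.116 (Ifit1) to 0.827 (Ifit3). The 4 Ifit fold changes were all above 0, though that of Ifit3 was -0.017 (log2) with the replicate number as a block and those of Ifit2, Ifit3 and Ifit3b turned with single libraries, and 2 of the 3 Ifitm fold changes were below 0. For 3 of the 7 members the WT and Zbp1-KO libraries did not overlap, 1 with Zbp1-KO on the higher side and 2 on the lower side, a share to be read against 32.3% of all genes tested (16.0% higher and 16.3% lower).

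**Figure D1:**
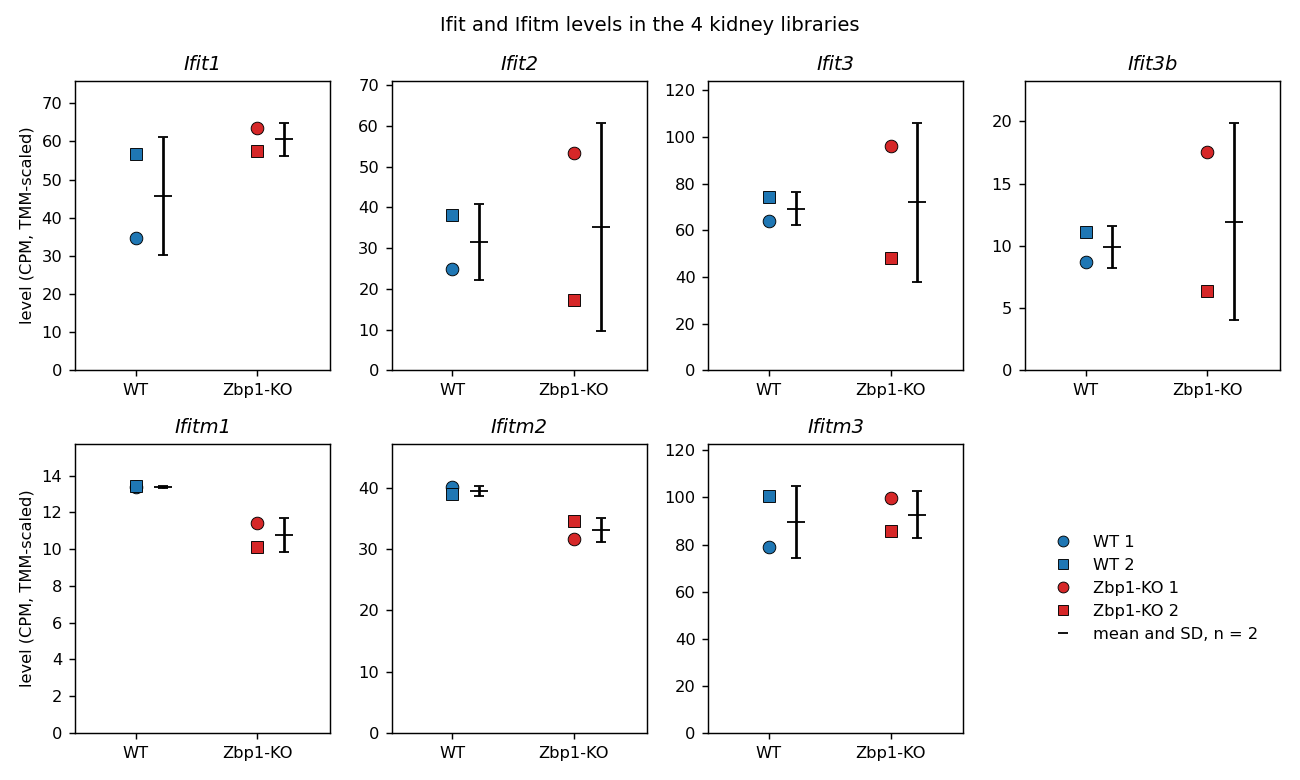
Level of each member in each library, in CPM scaled by TMM factors on a linear axis from 0, by genotype; circles are replicate 1, squares replicate 2, and bars the mean and SD of 2 libraries. Ifit2, Ifit3 and Ifit3b were highest in Zbp1-KO 1 and lowest in Zbp1-KO 2, while both Zbp1-KO libraries lay above WT for Ifit1 and below WT for Ifitm1 and Ifitm2.

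Ifit1, whose product binds capped RNA that lacks host methylation, had counts of 431 and 663 (WT) and of 862 and 534 (Zbp1-KO). These were 34.7 and 56.7 CPM in WT (mean 45.7 ± 15.6, SD, n = 2) and 63.6 and 57.5 CPM in Zbp1-KO (60.5 ± 4.27). Both Zbp1-KO libraries were above both WT libraries, but WT 2 and Zbp1-KO 2 differed little and the low value was WT 1. The log2 fold change of Zbp1-KO over WT was 0.41 ± 0.24 (SE, 95% interval -0.12 to 0.93). With 2 libraries per genotype a two-sided exact permutation test cannot give a p below 0.333, the value reached by Ifit1, Ifitm1 and Ifitm2.

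Ifit2, which acts with the other IFIT proteins in RNA-binding complexes, had counts of 310 and 445 (WT) and of 722 and 159 (Zbp1-KO). Its levels were 24.9 and 38.1 CPM in WT (31.5 ± 9.28, SD, n = 2) and 53.2 and 17.1 CPM in Zbp1-KO (35.2 ± 25.5). The Zbp1-KO libraries were the highest and the lowest of the 4, so the WT values lay inside them. The fold change was 0.17 ± 0.40 (log2, SE, interval -0.71 to 1.06), smaller than its error.

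Ifit3 showed the same order of libraries. It had counts of 798 and 867 (WT) and of 1302 and 445 (Zbp1-KO). The levels were 64.2 and 74.2 CPM in WT (69.2 ± 7.05, SD, n = 2) and 96.0 and 47.9 CPM in Zbp1-KO (72.0 ± 34.0). The groups overlapped, and the log2 fold change was 0.06 ± 0.28 (SE, interval -0.54 to 0.66).

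Ifit3b, a close copy of Ifit3, had counts of 108 and 130 (WT) and of 238 and 59 (Zbp1-KO). Its levels were 8.69 and 11.1 CPM in WT (9.90 ± 1.72, SD, n = 2) and 17.5 and 6.36 CPM in Zbp1-KO (12.0 ± 7.92). Zbp1-KO 1 was again highest and Zbp1-KO 2 lowest. The log2 fold change was 0.28 ± 0.44 (SE, interval -0.67 to 1.24).

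Counts of this pair are uncertain, since 18.5% of the windows of 150 bases, the length of a read, in the Ifit3 transcript were identical in Ifit3b and 16.0% of those of Ifit3b in Ifit3, and read pairs from such stretches have no unique place. For Ifit1 the share was 1.24%, with Ifit1bl2, and for Ifit2, Ifitm1 and Ifitm3 it was 0. Ifit3b took 11.9%, 13.0%, 15.5% and 11.7% of the summed Ifit3 and Ifit3b counts in WT 1, WT 2, Zbp1-KO 1 and Zbp1-KO 2. The 95% Wilson intervals, which cover counting error only, ran from 9.97% to 14.2% in WT 1, 11.1% to 15.3% in WT 2, 13.7% to 17.3% in Zbp1-KO 1 and 9.18% to 14.8% in Zbp1-KO 2, and all 4 intervals overlapped. With both genes counted as 1, the edgeR test still called 0 members.

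Ifitm1 had counts of 166 and 157 (WT) and of 155 and 94 (Zbp1-KO). Its levels were 13.4 CPM in both WT libraries (13.4 ± 0.0549, SD, n = 2) and 11.4 and 10.1 CPM in Zbp1-KO (10.8 ± 0.922). Both Zbp1-KO libraries were below both WT libraries, and the log2 fold change was -0.31 ± 0.31 (SE, interval -0.98 to 0.36). The fold change was about as large as its error.

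Ifitm2 had counts of 498 and 455 (WT) and of 429 and 320 (Zbp1-KO). Its levels were 40.1 and 38.9 CPM in WT (39.5 ± 0.803, SD, n = 2) and 31.6 and 34.5 CPM in Zbp1-KO (33.1 ± 2.01). The groups did not overlap, with Zbp1-KO below, and the log2 fold change was -0.26 ± 0.21 (SE, interval -0.71 to 0.19). Of the 150-base windows of its transcript, 23.5% were identical in the readthrough gene Gm45717 on the same strand, which was listed at 0 counts in all 4 libraries and shares 268 exon bases with Ifitm2, so reads in the shared exons have no unique gene.

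Ifitm3, the best known barrier to influenza virus entry in the family, had counts of 981 and 1175 (WT) and of 1353 and 795 (Zbp1-KO). Its levels were 78.9 and 100.5 CPM in WT (89.7 ± 15.3, SD, n = 2) and 99.8 and 85.6 CPM in Zbp1-KO (92.7 ± 9.99). The Zbp1-KO values lay between the WT values. The log2 fold change was 0.05 ± 0.20 (SE, interval -0.38 to 0.48), the narrowest interval of the 7 members.

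The median log2 fold change was 0.23 over the Ifit members and -0.26 over the Ifitm members, beside -0.01 over all genes tested. The Ifit median depended on which libraries were set against each other. Zbp1-KO 1 gave 0.94 against WT 1 and 0.43 against WT 2, whereas Zbp1-KO 2 gave -0.43 and -0.71. For the Ifitm members the 4 pairs lay between -0.23 and -0.22. With 3 genes the median is a single gene, and it was not the same gene in every pair. Between WT 1 and Zbp1-KO 1, Ifitm3 rose from -0.20 to 0.14, as log2 CPM minus the gene's mean. Ifitm1 fell from 0.15 to -0.07 and Ifitm2 from 0.15 to -0.19. The narrow range of the medians therefore does not describe the single genes. The pooled SD between replicates of a genotype was 0.58 for the mean log2 level of the Ifit members, larger than their median fold change, and 0.07 for that of the Ifitm members. These SDs belong to means and the fold changes to medians, so the 2 are not directly comparable. The Ifitm median does not describe Ifitm3, whose log2 fold change was 0.05.

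**Figure D2:**
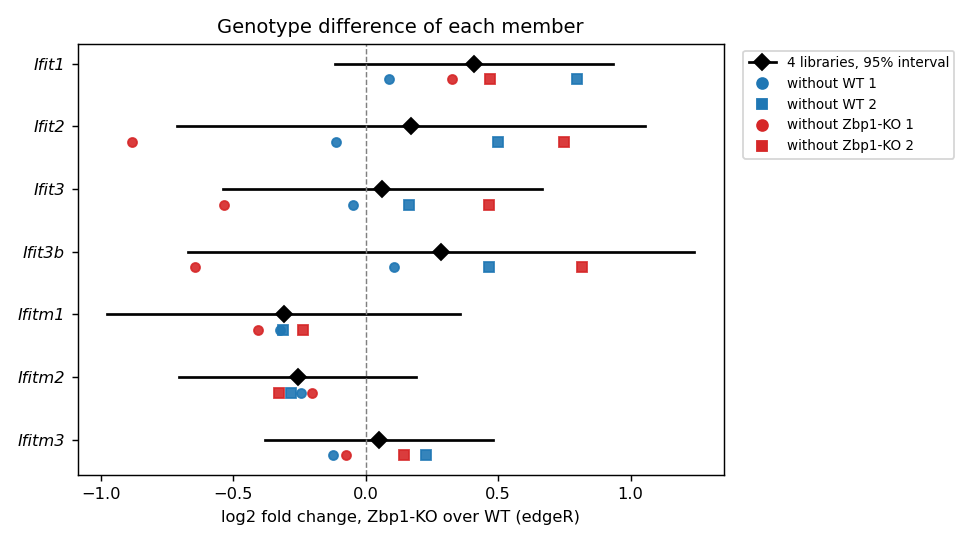
Log2 fold change of Zbp1-KO over WT for each member (edgeR), with black diamonds and lines for the 4 libraries and their 95% intervals and coloured points for fits that leave out 1 library. All 7 intervals include 0, and the points of Ifit2, Ifit3, Ifit3b and Ifitm3 lie on opposite sides of 0 without Zbp1-KO 1 and without Zbp1-KO 2.

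Leaving out single libraries showed the same dependence. Without Zbp1-KO 1, 1 of the 7 members, Ifit1, had a fold change above 0 and the Ifit median was -0.59. Without Zbp1-KO 2, 5 members were above 0, as with all libraries, and the Ifit median was 0.61. Without WT 1, 2 members were above 0, Ifit1 and Ifit3b. The Ifitm median stayed between -0.28 and -0.20. No member was called in any of these fits.

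For Ifit2, Ifit3 and Ifit3b the difference between the Zbp1-KO replicates was larger than the difference between genotypes. The same held for Ifitm3, with a log2 gap of 0.22 against a fold change of 0.05. For Ifit1 the log2 gap between the WT libraries, 0.71, exceeded the fold change of 0.41. Single libraries vary more than means of 2, so a gap above the fold change says little by itself. The share of all genes with such a gap was not counted. Zbp1-KO 1 exceeded Zbp1-KO 2 by 3.11-fold for Ifit2, 2.76-fold for Ifit3b and 2.00-fold for Ifit3. On the log2 scale these gaps were 1.63, 1.44 and 1.00, wider than the gaps of 91.3%, 89.7% and 81.7% of all genes tested, whose median gap was 0.39. For Ifit1 the corresponding ratio was 1.10-fold, and for the Ifitm members the ratios were 0.918 to 1.16. Between the WT libraries, WT 2 exceeded WT 1 by 1.64-fold for Ifit1, 1.53-fold for Ifit2, 1.28-fold for Ifit3b and 1.16-fold for Ifit3. In bulk RNA, fewer expressing cells and less RNA per cell cannot be told apart.

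The make-up of the Ifit counts varied between libraries. The share of Ifit1 was 26.2% (95% Wilson interval 24.1% to 28.3%) in WT 1, 31.5% (29.5% to 33.5%) in WT 2, 27.6% (26.1% to 29.2%) in Zbp1-KO 1 and 44.6% (41.8% to 47.4%) in Zbp1-KO 2. The share was highest in Zbp1-KO 2, but the intervals cover counting error only, and those of the WT replicates did not overlap either. Ifit1 had 1.20 counts for each Ifit3 count there, against 0.540, 0.765 and 0.662 in WT 1, WT 2 and Zbp1-KO 1. Among the Ifitm counts, the share of Ifitm3 was 59.6% (57.2% to 62.0%), 65.8% (63.5% to 67.9%), 69.9% (67.8% to 71.9%) and 65.8% (63.0% to 68.4%) in WT 1, WT 2, Zbp1-KO 1 and Zbp1-KO 2, lowest in WT 1.

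**Figure D3:**
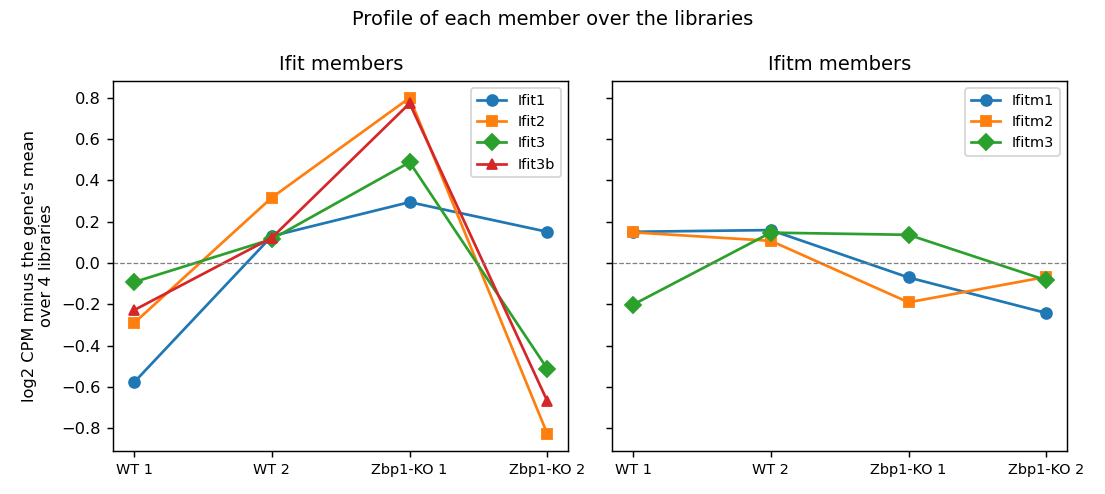
Profile of each member over the 4 libraries, as log2 CPM minus the mean of that gene over the libraries, with Ifit members on the left and Ifitm members on the right on the same axis. Ifit2, Ifit3 and Ifit3b range from -0.83 to 0.80 with a peak in Zbp1-KO 1 and a low in Zbp1-KO 2, and the Ifitm members stay between -0.24 and 0.16.

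Likeness of profiles was measured as the Euclidean distance between log2 CPM values centred on the gene's mean, over 4 libraries, as a description. The closest pairs of members were Ifitm1 with Ifitm2 (0.22), Ifit2 with Ifit3b (0.26) and Ifit3 with Ifit3b (0.35). Ifit1 lay closer to Ifitm3 (0.47) than to Ifit3 (0.84), Ifit3b (1.01) or Ifit2 (1.15). Outside the families, the genes nearest to the mean Ifit profile were Pgap3 (0.0240), Psd (0.0570) and Npy1r (0.0646), and those nearest to the mean Ifitm profile were Git1 (0.00928), March5 (0.0243) and Gnpat (0.0284). These 6 were picked as the smallest distances to a family mean among all genes tested, so small values follow from the size of the search. They cannot be set against the distances between members.

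The replicate gaps of the Ifit members were set beside those of other interferon-stimulated genes. Of 64 such genes tested, a list that includes Zbp1, 49 were higher in Zbp1-KO 1 than in Zbp1-KO 2 (against 50.2% of all genes tested) with a median log2 difference of 0.25, and 48 were higher in WT 2 than in WT 1 (against 49.7%). Cxcl10 and Cxcl9, chemokines that draw activated T cells, had larger gaps than any Ifit member between the Zbp1-KO libraries, 2.82 and 2.56 on the log2 scale. Oas1a, Oas1g, Oas3 and Mx1 went the other way, with -1.09, -0.79, -0.57 and -0.53. These 6 genes were chosen after their values were seen.

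**Figure D4:**
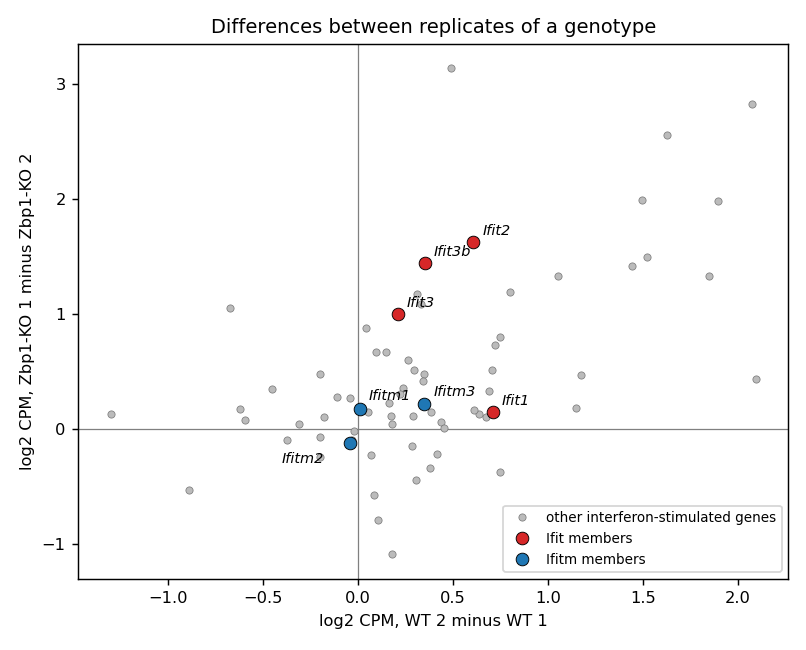
Difference in log2 CPM between replicates, WT 2 minus WT 1 on the horizontal axis and Zbp1-KO 1 minus Zbp1-KO 2 on the vertical axis, for the Ifit members (red), the Ifitm members (blue) and 64 other interferon-stimulated genes (grey). Ifit2, Ifit3b and Ifit3 lie at 1.63, 1.44 and 1.00 on the vertical axis, and Ifit1 and the Ifitm members lie between -0.12 and 0.22.

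Upstream of the members, interferon transcripts were barely seen. Of 21 type I, II and III interferon genes, 19 had 0 counts in all 4 libraries, among them Ifnb1 and Ifng, and Ifnab and Ifnz had 1 count in 1 library each, below the limit of 3 counts. None could be tested. All 6 interferon receptor chains were tested and 0 passed at an unadjusted p under 0.05, with a median log2 fold change of 0.12. The smallest p-values were those of Il10rb (0.17 ± 0.22) and Ifngr2 (0.34 ± 0.45), both smaller than their SE.

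Of 12 kinases and transcription factors downstream of the receptors, 0 were called and 1 had an unadjusted p under 0.05, with a median of -0.03. That gene was Irf1, a transcription factor that acts on many interferon targets. Irf1 stood at 19.7 and 30.0 CPM (WT) and at 51.9 and 35.7 CPM (Zbp1-KO), with both Zbp1-KO values above both WT values (log2 fold change 0.82 ± 0.27, edgeR unadjusted p = 0.00977, adjusted p = 0.999). Irf9, a factor that binds paired GAAA elements, stood at 31.7 and 30.8 CPM (WT) and at 42.8 and 35.5 CPM (Zbp1-KO) (0.33 ± 0.21, adjusted p = 0.999, edgeR).

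Of 13 tested sensors and adaptors that lead to interferon production, 0 were called and 3 were on the higher side at an unadjusted p under 0.05 (background 1.91%). Tlr7, the endosomal receptor for single-stranded RNA, stood at 1.05 and 1.11 CPM (WT) and at 5.31 and 5.60 CPM (Zbp1-KO), with a log2 fold change of 2.33 ± 0.68 (edgeR unadjusted p = 0.00541, adjusted p = 0.999). Ikbke, a kinase that activates interferon regulatory factors, stood at 5.95 and 8.72 CPM (WT) and at 11.2 and 18.1 CPM (Zbp1-KO) (0.99 ± 0.37, edgeR adjusted p = 0.999). Of 8 tested inhibitors of the response, 0 were called and 2 were on the higher side at that threshold. Ptpn6, a phosphatase that dampens receptor signalling, stood at 17.5 and 15.6 CPM (WT) and at 30.3 and 27.5 CPM (Zbp1-KO) (0.81 ± 0.24, adjusted p = 0.999, edgeR). Usp18, which removes ISG15 and blocks the interferon receptor, stood at 5.47 and 6.93 CPM (WT) and at 17.3 and 8.08 CPM (Zbp1-KO) (1.04 ± 0.42, adjusted p = 0.999, edgeR), and its high library was Zbp1-KO 1, as for Ifit2, Ifit3 and Ifit3b.

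Among the 64 other interferon-stimulated genes tested, the quasi-likelihood test of edgeR called 0 at an adjusted p under 0.05, 14 were on the higher side at an unadjusted p under 0.05 and 2, Zbp1 itself and Oasl1, on the lower side (background 1.91% and 1.97%), with a median log2 fold change of 0.37. DESeq2 also called 0, the exact test of edgeR called 2 (Nlrc5 and Zbp1), and the test on all genes with at least 1 count called 6 (Gbp2, Gbp4, Igtp, Iigp1, Nlrc5 and Zbp1). With 1 library left out, 0 were called without WT 1, 1 without WT 2 (Igtp), 1 without Zbp1-KO 1 (Zbp1) and 3 without Zbp1-KO 2 (Gbp2, Tgtp1 and Zbp1). The higher-side count at an unadjusted p under 0.05 moved with single libraries: it was 4 without WT 1, 22 without WT 2, 6 without Zbp1-KO 1 and 27 without Zbp1-KO 2. With all libraries 0 of the 4 Ifit members passed that threshold, and 4 genes are too few to set against 14 of 64. Fits with 1 library left out rest on a single library in 1 arm. In them the Ifit median log2 fold change ran from -0.59 without Zbp1-KO 1 to 0.61 without Zbp1-KO 2.

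Related genes of both families were low. Ifit1bl1 had counts of 21 and 24 (WT) and of 18 and 2 (Zbp1-KO), and Ifit1bl2 had 21 and 30 (WT) and 19 and 7 (Zbp1-KO). Their log2 fold changes were -1.23 ± 1.18 and -0.96 ± 1.01, about as large as their errors. Ifitm10 had counts of 31 and 17 (WT) and of 15 and 11 (Zbp1-KO) (-0.78 ± 1.01). Ifitm5 (2, 1, 4 and 0 counts), Ifitm6 (1, 3, 0 and 3) and Ifitm7 (0, 0, 0 and 8) stayed below the filter. All 3 tested relatives thus had fold changes below 0, and none passed the test.

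Markers of other cell types that could carry these transcripts were measured beside them. Endothelial markers (12 tested) summed to 615, 798, 674 and 704 CPM in WT 1, WT 2, Zbp1-KO 1 and Zbp1-KO 2, and macrophage and dendritic cell markers (11 tested of 12) to 396, 258, 376 and 372 CPM. Fibroblast and pericyte markers summed to 828, 683, 511 and 739 CPM and B and plasma cell markers to 198, 111, 132 and 123 CPM. Neutrophil markers summed to 25.4, 5.30, 10.1 and 12.6 CPM, with the defining genes Ly6g and Mpo at 0. T and NK cell markers summed to 14.0, 9.49, 25.7 and 21.2 CPM, with 8 of 8 tested genes above 0 (median log2 fold change 1.05, 0 called) and the NK markers Ncr1 and Klrb1c at 0. Adipocyte markers summed to 615, 592, 1011 and 682 CPM (median 1.91, 8 of 9 tested above 0, 1 called, Cfd), with Lep at 0. The T and NK cell and adipocyte lists were highest in Zbp1-KO 1, and the fibroblast and pericyte list was lowest there. Median log2 fold changes were -0.002 for endothelial, 0.21 for macrophage and dendritic cell and -0.19 for fibroblast and pericyte markers. They were -0.13 for B and plasma cell markers and -0.34 for neutrophil markers. The part of any of these cell types in the member levels was not tested.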

How the data were processed

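Kidney polyA RNA was sequenced from 2 WT and 2 Zbp1-KO libraries (TRIzol, TruSeq v2). The authors trimmed reads with Trimmomatic, aligned them with HISAT2 (build mm10 in the submitters' processing notes) and counted uniquely mapped pairs with featureCounts. The deposited files hold these raw counts, 1 whole number per Ensembl identifier. Annotation release, program versions and strand setting were not given in the sources used here. Of 54532 identifiers, 54495 matched GENCODE M21 and 37 did not. Total counts were 9878776 to 12921925 per library, and 3 counts were taken as the floor.

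Genotypes were compared by the two-sided quasi-likelihood F test of edgeR 4.0.16 under R 4.3.3, on genes kept by filterByExpr (a count of 10, a total of 15) and with TMM factors, with Benjamini-Hochberg adjustment over 14908 genes. Fold changes used a prior count of 0.125, their SE was the absolute log2 fold change over the square root of F, and profiles used log2 CPM with a prior count of 2. CPM per kb used merged exon length. The procedure was also run on simulated data, and no outcome of that run is given here. Replicates were not duplicates (chi-square per gene 17.7 in WT and 32.4 in Zbp1-KO). Same-numbered libraries did not deviate together (correlation across genes 0.004), so the numbers were not treated as pairs.

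Genes named were the 7 members, Zbp1, related family genes, the 2 smallest p-values of each pathway list and the 3 nearest profiles per family, and others as stated. Members and lists were chosen with earlier results of these data known. Alternatives were RLE and upper quartile factors, 2 other filters, a replicate block, the exact test of edgeR, DESeq2 1.42.0, leaving out mitochondrially encoded genes, summing Ifit3 and Ifit3b, and leaving out each library.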

Additional observations from a re-analysis of the deposited data

How the results depend on the processing

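No member was called under any alternative, with edgeR or DESeq2 adjusted p-values of 0.367 to 1. With all 4 libraries, every alternative kept the direction of each member except that the fit with the replicate number as a block gave Ifit3 a log2 fold change of -0.017 (adjusted p = 1.00). The block changed no other call of a member, and 11 genes were called with it in place of 2. The number of genes called was 41 with all genes that have at least 1 count in any library, 14 with the exact test of edgeR, 9 with DESeq2, 4 without mitochondrially encoded genes and 3 with genes of a mean of at least 1 CPM, and 0 to 37 when 1 library was left out (0 without WT 1, 20 without WT 2, 8 without Zbp1-KO 1 and 37 without Zbp1-KO 2). The cause was not tested. The Ifit median was 0.07 to 0.23 with all libraries and -0.59 to 0.61 with 1 left out, and the Ifitm median was -0.27 to -0.26 and -0.28 to -0.20. Directions turned for Ifit2, Ifit3, Ifit3b and Ifitm3 when a library was left out, with ranges of -0.88 to 0.75, -0.54 to 0.47, -0.64 to 0.82 and -0.12 to 0.23. The negative values came without WT 1 for Ifit2 (-0.11), Ifit3 (-0.05) and Ifitm3 (-0.12) and without Zbp1-KO 1 for Ifit2, Ifit3, Ifit3b and Ifitm3 (-0.07). Fits that leave out a library assume that the lone library varies like the other genotype. Zbp1 was called with all genes that have at least 1 count (-3.65, adjusted p = 2.86e-05), with the exact test (-3.67, adjusted p = 0.0110), without Zbp1-KO 1, where the remaining Zbp1-KO library had 0 counts, and without Zbp1-KO 2 (-2.78, adjusted p = 0.0449).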
